A study of Homo sapiens with 6 samples.

Results

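The transcription factors of the MYC and MAX network were examined in bulk RNA-seq of H9 cells, a cutaneous T-cell lymphoma line, after inhibition of CDK9. Members were taken by symbol from the raw count table, and all 10 listed genes (MYC, MAX, MXD1, MXD3, MXD4, MXI1, MNT, MGA, MLX and MLXIP) were found among its 61541 genes. The control group was 3 libraries of H9 cells given the vehicle DMSO, whose labels name no time. The treated group was 3 libraries of H9 cells given AZD4573, a selective CDK9 inhibitor, for 4 h. All 6 libraries carry the genotype label WT and come from this single line. The labels do not say whether replicates were separate cultures, so each p-value measures the spread between these libraries, which may be technical. In bulk RNA, fewer cells with a transcript and less of it per cell cannot be told apart.

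CDK9, with its partner cyclin T, releases paused RNA polymerase II (RNAP2) into elongation, and short-lived mRNAs are known to depend on this step. MYC is an oncogenic transcription factor that drives growth and biomass production, and it binds DNA as a dimer with MAX at the E-box CACGTG. MXD1, MXD3, MXD4, MXI1 and MNT bind MAX in its place and recruit SIN3-HDAC corepressors to such sites, while MGA ties MAX to the polycomb complex PRC1.6. MLX is a second hub, which pairs with some MXD proteins, MNT and the glucose-sensing factor MLXIP (MondoA).

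The network did not move as a block. Of these mRNAs, MAX, MXD1, MXD4, MNT, MGA, MLX and MLXIP fell upon AZD4573 treatment, while MYC and MXI1 rose with edgeR's TMM scaling and fell when libraries were scaled to mitochondrial mRNAs. MXD3 did not pass the test. TMM assumes that most genes do not change, and calls are from edgeR (quasi-likelihood test, p-values adjusted over all genes by the Benjamini-Hochberg method). In numbers, 7 members were lower at an adjusted p under 0.05, where 37.4% of the 17678 genes tested were lower, and 2 were higher, where 37.3% of genes were. Under the added threshold of at least 1.5-fold, 4 members (MXD1, MAX, MLX and MGA) were lower and 0 were higher, beside 23.7% and 22.7% of all genes tested. Each AZD4573 library lay below each DMSO library for 7 members and above for 2, beside 38.7% and 39% of all genes. The median log2 fold change was -0.56 over the members and 0.03 over all genes tested. All 10 members passed the filter on low counts, and the 7 lower calls held under each of 13 alternative settings.

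**Figure D1:**
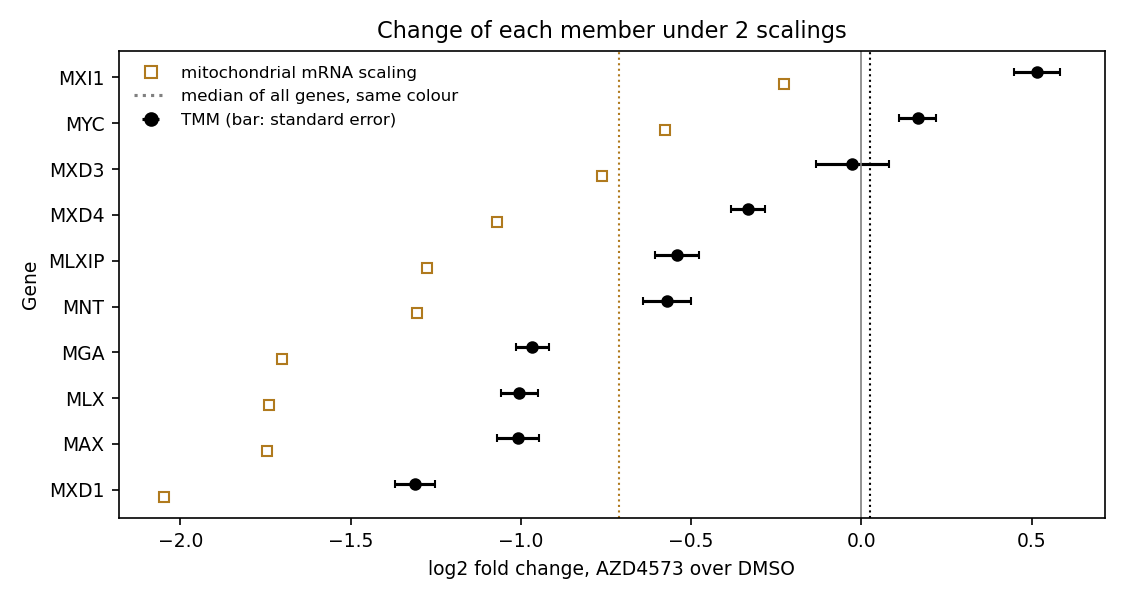
Log2 fold change (AZD4573 over DMSO) of each member with TMM scaling (black points, bars are standard errors) and with mitochondrial mRNA scaling (open squares), with dotted lines at the median of all genes under each. MXD1 lies lowest at -1.31 and MXI1 highest at 0.52 with TMM, and both MYC (-0.58) and MXI1 (-0.23) turn below 0 with mitochondrial scaling, whose median over all genes is -0.71.

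MXD4, MNT and MLX carry an E-box in the stretch just before their annotated start, and these stretches are shown because the E-box is the site that the network itself binds. The windows are RefSeq promoters on GRCh38.p14, of 300 bases (250 before and 50 after each start), and 9 of 10 members had at least 1 window. MYC had none, so its promoter was not searched for the motif. The motif CACGTG, which reads the same on both strands, was present in 3 of the 14 member windows (21.4%), beside 7.26% of 35116 windows of all genes and 43.1% of 58 windows of a list of MYC-activated genes. Each sequence is given 5′ to 3′ on the strand of its gene, in lower case with the E-box in capitals.
MXD4, chr4:2262110-2262359, minus strand: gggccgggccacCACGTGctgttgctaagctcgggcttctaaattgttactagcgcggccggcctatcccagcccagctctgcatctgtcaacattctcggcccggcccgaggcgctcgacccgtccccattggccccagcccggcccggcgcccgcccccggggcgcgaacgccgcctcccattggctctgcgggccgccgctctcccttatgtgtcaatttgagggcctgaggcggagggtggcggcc
MNT, chr17:2401105-2401310, minus strand: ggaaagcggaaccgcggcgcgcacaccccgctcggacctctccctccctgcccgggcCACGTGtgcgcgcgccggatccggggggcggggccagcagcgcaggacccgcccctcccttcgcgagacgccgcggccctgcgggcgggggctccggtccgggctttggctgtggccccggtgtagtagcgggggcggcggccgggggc
MLX, chr17:42566850-42567071, plus strand: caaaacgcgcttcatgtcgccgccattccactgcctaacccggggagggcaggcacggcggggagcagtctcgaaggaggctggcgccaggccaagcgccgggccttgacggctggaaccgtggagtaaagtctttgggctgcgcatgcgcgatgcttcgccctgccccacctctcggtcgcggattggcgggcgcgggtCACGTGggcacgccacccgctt
Each stretch ends at the base before the gene start in GENCODE, and the motif begins 238 bases before that start in MXD4, 149 in MNT and 22 in MLX. The mRNAs of all 3 genes fell, by 0.33, 0.57 and 1.01 on the log2 scale, and 4 members without the motif in their windows fell as well. A match is a description of these letters and not of binding, which was not measured here.

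Total counts ranged from 70367303 to 76571157 with DMSO and from 52101868 to 63795185 with AZD4573, so that a count of 0 (taken as up to 3 counts, counting error only) allows up to 0.0589 CPM in the shallowest library. CPM are counts scaled to a common library total, here after TMM, and errors are SD over 3 libraries. The 13 mitochondrial mRNAs, products of another polymerase than RNAP2, took 3.13% ± 0.0929 of all counts in vehicle libraries and 4.85% ± 0.162 in treated libraries (SD, n = 3 each). Scaling to them shifted the median log2 fold change of all genes by -0.74, and 11878 genes were then lower and 2144 higher, in place of 6606 and 6596. Library size as the only scaling shifted it by -0.11. Of 13 T-cell markers, 12 had a mean of 1 CPM or more and CD2 was below, with a summed level of 1757 to 1802 CPM with DMSO and 2252 to 2293 CPM with AZD4573. TRBC1, among those higher, was at 254 to 280 CPM with DMSO and 501 to 515 CPM with AZD4573. CD247 (212 to 216 against 191 to 203 CPM) and CD28 (5.4 to 6.3 against 4.2 to 4.4 CPM) fell. Of 6 B-cell markers, CD79A and CD79B had a mean of 1 CPM or more, while the others, such as MS4A1, PAX5 and CD22, did not. The summed level was 61.0 to 67.1 CPM against 92.5 to 103 CPM. CD79A rose (55 to 60.9 against 88.5 to 98.4 CPM), while CD79B fell (5.61 to 5.72 against 3.26 to 3.77 CPM). None of 6 myeloid markers had a mean of 1 CPM, and their sum was 0.421 to 0.560 CPM against 1.56 to 2.24 CPM, including MPO, which had 0 counts in each DMSO library and 0.672 to 1.61 CPM with AZD4573. The part of these shifts in the results was not tested.

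MYC (ENSG00000136997, GRCh38 chromosome 8, 127735434 to 127742951, plus strand) was at 655, 654 and 651 CPM with DMSO and at 670.2, 793 and 735 CPM with AZD4573. By TMM all AZD4573 libraries lay above all DMSO libraries, and the treated libraries were spread more widely. The mean went from 653 ± 2.10 to 733 ± 61.2 CPM (SD, n = 3 each), a log2 fold change of 0.17 (SE 0.05, edgeR, adjusted p = 0.0136), or 1.12-fold. This small rise depended on the scaling and on single libraries. It was 0.06 with library size only (edgeR, adjusted p = 0.283), 0.10 without AZD4573 replicate 2 (edgeR, adjusted p = 0.104) and 0.16 without AZD4573 replicate 3 (edgeR, adjusted p = 0.0501). With mitochondrial scaling MYC was lower, at -0.58 (edgeR, adjusted p = 4.32e-08, the lowest over the alternatives, of which 0.283 was the highest), but less so than the median gene at -0.71. By TMM, 56.4% of all genes tested lay at or below the log2 fold change of MYC. A change of scaling moves all genes by nearly the same amount, so the place of MYC relative to the median gene repeats under both. The genes with the most similar pattern over the 6 libraries were CD5, ZNF628 and NCBP2AS2, with root mean square distances from 0.0261 to 0.0292 on the centred log2 CPM scale. By qRT-PCR in H9 and other cell lines, patient specimens and xenograft cells, the paper reports a significant reduction of c-Myc transcripts upon AZD4573. It also reports a reduction of c-Myc protein by immunoblot, after 6 h in cell lines. The legend gives no time for the qRT-PCR. The rise of MYC by TMM goes the other way, but at 4 h, in H9 alone and by another measure, and the reason was not tested.

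**Figure D2:**
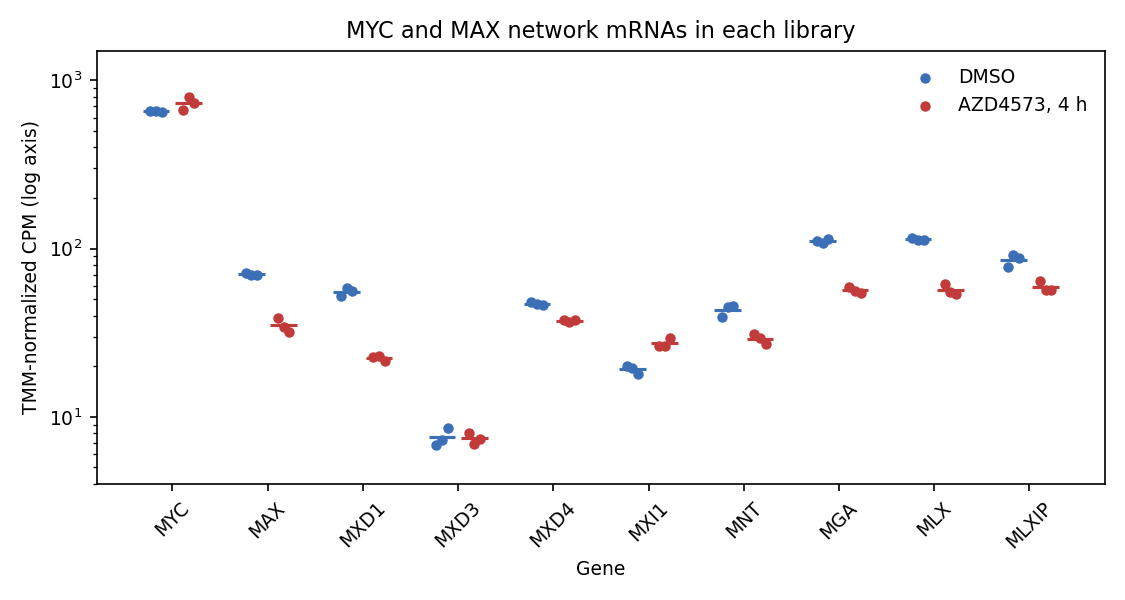
TMM-normalized CPM (log axis) of each member in each DMSO (blue) and AZD4573 (red) library, with lines at group means. MYC has means of 653 CPM with DMSO and 733 CPM with AZD4573, higher by TMM (lower with mitochondrial scaling), while MAX drops from 70.4 to 35 CPM, and the groups overlap in MXD3.

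MAX (ENSG00000125952, chromosome 14, 65006174 to 65102695, minus strand), the obligate partner of MYC, was at 71.8, 70.0 and 69.4 CPM with DMSO and at 38.5, 34.4 and 32.1 CPM with AZD4573. The groups did not overlap, and the treated mean of 35 ± 3.23 CPM was 49.7% of the vehicle mean of 70.4 ± 1.22 CPM (SD, n = 3 each). Its log2 fold change was -1.01 (SE 0.06, edgeR, adjusted p = 6.21e-09), and 13.9% of genes tested had a fold change as low or lower. MAX shares 1006 of its 6257 exon bases with genes on the other strand, mainly FNTB, whose mean was 15.98 CPM with DMSO and 12.1 CPM with AZD4573. Since the counting ignored strand, reads in the shared bases cannot be told apart.

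The MXD genes, antagonists of MYC that include genes switched on as cells differentiate, moved apart from each other. MXD1 (ENSG00000059728, chromosome 2, 69897688 to 69942945, plus strand) was at 52.3, 58.0 and 56.2 CPM with DMSO and at 22.6, 22.98 and 21.5 CPM with AZD4573. Its groups lay far apart, and with a log2 fold change of -1.31 (SE 0.06, edgeR, adjusted p = 3.30e-10), or 2.48-fold lower, it had the largest fold change of the 10 members by TMM. MXD1 shares 237 exon bases on the same strand with SNRNP27, which was at 40.5 CPM with DMSO and 48.4 CPM with AZD4573. The genes nearest to MXD1 in pattern over the 6 libraries were CHPF2, CYB561D2 and FOXRED2, with distances from 0.0147 to 0.0292 on the centred log2 CPM scale.

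MXI1 (ENSG00000119950, chromosome 10, 110207605 to 110287365, plus strand), a close relative of MXD1, went the other way. It was at 20.1, 19.5 and 17.9 CPM with DMSO and at 26.3, 26.4 and 29.5 CPM with AZD4573, with no overlap between groups. The mean rose from 19.2 ± 1.14 to 27.4 ± 1.80 CPM (SD, n = 3 each), a log2 fold change of 0.52 (SE 0.07, edgeR, adjusted p = 1.22e-05), but it was -0.23 with mitochondrial scaling (edgeR, adjusted p = 0.0199, and from 1.25e-10 to 0.0199 over all alternatives). MXI1 lay above the median gene under both scalings, but a change of scaling moves all genes by nearly the same amount, so the second repeats the first. Leaving out any single library gave values from 0.45 to 0.54.

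MXD4 (ENSG00000123933, chromosome 4, 2247432 to 2262109, minus strand) fell by a smaller step, from 48.2, 46.8 and 46.0 CPM with DMSO to 37.4, 36.8 and 37.8 CPM with AZD4573. The replicates were tight and the groups separate, with a treated mean at 79.4% of the vehicle mean and a log2 fold change of -0.33 (SE 0.05, edgeR, adjusted p = 3.15e-05). MXD3 (ENSG00000213347, chromosome 5, 177301461 to 177312757, minus strand) was at 6.78, 7.32 and 8.63 CPM with DMSO and at 8.04, 6.91 and 7.37 CPM with AZD4573. These groups overlapped, and the log2 fold change of -0.03 (SE 0.11, edgeR, adjusted p = 0.829) did not pass the test, although it did with mitochondrial scaling, at -0.76 (edgeR, adjusted p = 1.15e-05, and up to 0.935 over the alternatives). The MXD3 value is also uncertain, since 2074 of its 4743 exon bases (43.7%) are shared with PRELID1 on the other strand and RAB24 on the same strand. PRELID1 was at 131 ± 10.4 CPM with DMSO and 152 ± 5.98 CPM with AZD4573 (SD, n = 3 each).

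MNT (ENSG00000070444, chromosome 17, 2384073 to 2401104, minus strand), the broadly expressed MAX-binding repressor, was at 39.1, 44.8 and 45.8 CPM with DMSO and at 30.9, 29.4 and 27.1 CPM with AZD4573. All treated libraries lay below the vehicle libraries, and the log2 fold change was -0.57 (SE 0.07, edgeR, adjusted p = 6.16e-06), just short of 1.5-fold. MGA (ENSG00000174197, chromosome 15, 41621134 to 41773081, plus strand), a very large protein with both a T-box and a MAX-binding domain, went from 110.8, 107.6 and 113.8 CPM to 59.4, 56.0 and 54.8 CPM. Its treated mean was 51.2% of the vehicle mean, without overlap, at a log2 fold change of -0.97 (SE 0.05, edgeR, adjusted p = 8.48e-10).

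MLX (ENSG00000108788, chromosome 17, 42567072 to 42573239, plus strand) was at 116, 113 and 113 CPM with DMSO and at 61.5, 55.5 and 53.4 CPM with AZD4573. The groups were far apart, with a treated mean of 49.8% of the vehicle mean and a log2 fold change of -1.01 (SE 0.05, edgeR, adjusted p = 1.76e-09), so that both hubs, MAX and MLX, were lower by almost the same factor. MLX shares 775 of 4255 exon bases with PSMC3IP on the other strand, which was at 24.2 CPM with DMSO and 22.0 CPM with AZD4573, and 1 pseudogene (MLXP1) is named after it. MLXIP (ENSG00000175727, chromosome 12, 122078756 to 122147344, plus strand), the partner of MLX, was at 78.3, 91.2 and 87.8 CPM with DMSO and at 63.9, 56.6 and 56.4 CPM with AZD4573. It fell by less, to 68.7% of the vehicle mean, with a log2 fold change of -0.54 (SE 0.07, edgeR, adjusted p = 5.05e-06) and no overlap between groups.

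Gene span and change were set side by side. Values by TMM were 0.17 for MYC (7.5 kb, lower with mitochondrial scaling), -0.03 for MXD3 (11.3 kb) and -0.33 for MXD4 (14.7 kb). They were -0.57 for MNT (17 kb), -1.31 for MXD1 (45.3 kb) and -0.54 for MLXIP (68.6 kb). From MYC to MXD1 the values went down with span, while the other members did not keep to this order. MLX, with the shortest span at 6.2 kb, and MAX, at 96.5 kb, had nearly equal log2 fold changes, while MXI1, at 79.8 kb, was higher by TMM (lower with mitochondrial scaling). The longest, MGA at 151.9 kb, was close to MLX. This is a description of 10 genes, with no test.

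Levels were compared between genes as CPM per kb of exon. All annotated exons of a gene were merged, which can be longer than the transcript in use. In vehicle-treated cells MYC led at 106.9 ± 0.343 CPM per kb, followed by MLX at 26.8 ± 0.441, MAX at 11.3 ± 0.194 and MXD1 at 8.74 ± 0.460 (SD, n = 3 each). MXD4, MLXIP, MGA, MNT and MXI1 followed between 6.84 and 3.25 CPM per kb, where only MLXIP and MGA overlapped, and MXD3 was last at 1.598 ± 0.201. MYC mRNA was thus far above the mRNAs of the factors that compete with MYC or bind it, and it ranked 295 of 17638 genes by level per kb in both groups. Protein levels were not measured. After AZD4573 MYC was at 119.9 ± 10.0 CPM per kb, MLX at 13.4 ± 0.993, MAX at 5.59 ± 0.516 and MXD4 at 5.43 ± 0.0722, and MAX no longer separated from MXD4. MXD1 moved from the fourth to the seventh place, at 3.52 ± 0.121 CPM per kb, where it overlapped MNT, and MXI1 moved from the ninth to the fifth, at 4.64 ± 0.305, where it overlapped MLXIP. Of the summed level per kb of all 10 members, MYC made up 59.0%, 58.6% and 58.6% with DMSO and 70.1%, 74.8% and 73.7% with AZD4573. MAX made up 6.18% ± 0.115 with DMSO and 3.41% ± 0.445 with AZD4573 (SD, n = 3 each). These shares are within a library and do not depend on the scaling between libraries.

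For the same reason, each member was set against MAX in its own library. There were 9.13, 9.35 and 9.38 MYC counts for each MAX count with DMSO, and 17.4, 23.03 and 22.9 with AZD4573. The ratio of MYC to MAX was thus 2.26-fold higher with AZD4573, without overlap between groups (exact permutation test, two-sided, p = 0.1, adjusted p = 0.122 over 11 ratios). With 3 libraries against 3, 0.1 is the smallest p that the 20 permutations can give, so no ratio could pass 0.05. MXI1 went from 0.272 ± 0.0124 to 0.790 ± 0.119 counts per MAX count (SD, n = 3 each), 2.88-fold higher, and MXD3 was 1.99-fold, MXD4 1.602-fold, MLXIP 1.39-fold and MNT 1.36-fold higher relative to MAX. MXD1 was the only member lower relative to MAX, at 0.789 ± 0.0531 counts per MAX count with DMSO and 0.642 ± 0.0466 with AZD4573 (SD, n = 3 each). The groups did not overlap for any of these ratios (exact permutation test, p = 0.1 for each, adjusted p = 0.122). All of them include the fall of MAX, whose log2 fold change by TMM was -1.01 where the median gene was at 0.03. A gene with little change by TMM, such as MXD3 at -0.03, was therefore higher relative to MAX.

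The ratios of MLX and MGA to MAX overlapped between the groups. There were 1.62, 1.61 and 1.63 MLX counts per MAX count with DMSO, and 1.599, 1.61 and 1.66 with AZD4573, with a mean of 1.62 ± 0.00591 and 1.63 ± 0.0337 (SD, n = 3 each, exact permutation test, p = 1.0, adjusted p = 1). The MGA ratio was 1.57 ± 0.0567 with DMSO and 1.63 ± 0.0813 with AZD4573 (SD, n = 3 each) (exact permutation test, p = 0.6, adjusted p = 0.66). MLXIP was at 0.753 ± 0.0704 counts per count of its partner MLX with DMSO and at 1.04 ± 0.0183 with AZD4573 (SD, n = 3 each), also without overlap. The summed counts of MXD1, MXD3, MXD4, MXI1 and MNT came to 0.264 ± 0.00859 per MYC count with DMSO and 0.170 ± 0.0163 with AZD4573 (SD, n = 3 each), without overlap (exact permutation test, p = 0.1, adjusted p = 0.122 for both ratios).

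**Figure D3:**
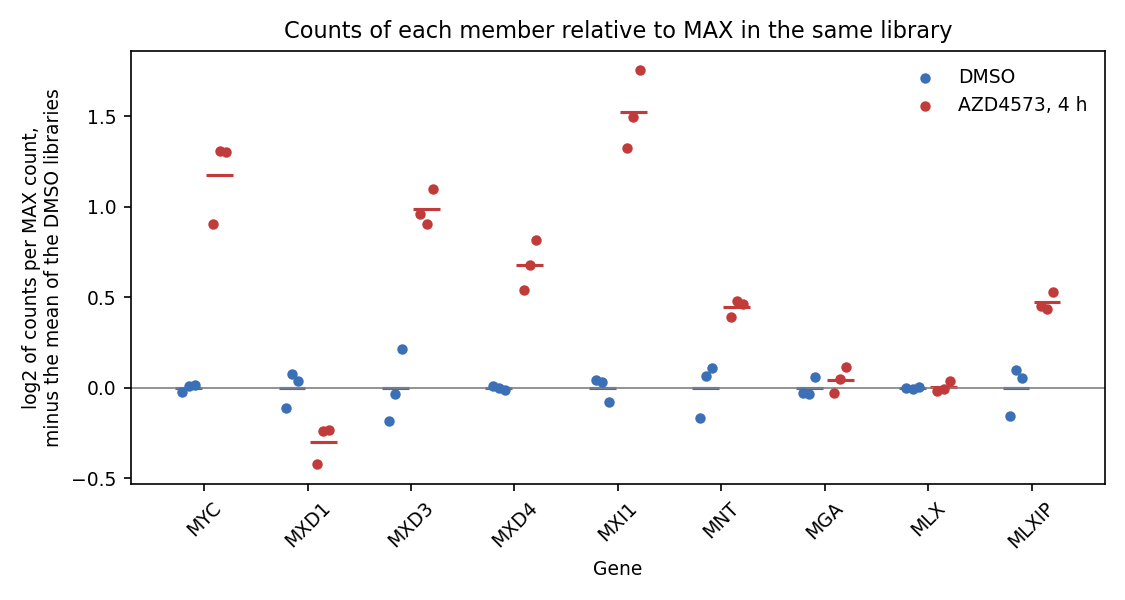
Log2 of the counts of each member per MAX count in the same library, minus the mean of the DMSO libraries, for DMSO (blue) and AZD4573 (red) libraries with lines at group means. MYC and MXI1 lie highest with AZD4573, at 1.17 and 1.53 above DMSO, MXD1 lies below it by 0.30, and MLX and MGA overlap the DMSO libraries. All values include the fall of MAX itself, at -1.01 by TMM.

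Genes around the network were taken from lists written from general knowledge of the pathway, and they are described by counts beside the 37.4% lower and 37.3% higher of all genes tested. Those shares are with TMM. Counts with mitochondrial scaling stand beside 11878 lower and 2144 higher of the 17678 genes under that scaling. Of 19 MYC coactivators and partners, 11 fell and 5 rose, with a median log2 fold change of -0.26, but with mitochondrial scaling 18 were lower and 1 higher. KAT5, the acetyltransferase of the TIP60 complex, fell from 63.8 to 18.1 CPM (log2 fold change -1.82), and PAF1, a subunit of the RNAP2 elongation complex named after it, fell from 107 to 39.9 CPM (-1.42). KAT5 shares 1439 of its 3732 exon bases with RNASEH2C on the other strand, which was at 44.4 CPM with DMSO and 35.6 CPM with AZD4573, and reads in these bases cannot be told apart. KAT2A, the acetyltransferase of SAGA, rose from 146 to 278 CPM (0.93), and EP400, the motor of the TIP60 complex, rose from 151 to 202 CPM (0.42 by TMM, -0.32 with mitochondrial scaling). MYCBP and RUVBL2 were among the others that rose by TMM.

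The corepressors that MXD and MNT proteins recruit were mostly lower. Of 18 SIN3-HDAC genes, 12 fell, 9 of them by at least 1.5-fold, and the median log2 fold change was -0.67. The corepressor subunits SAP30 (26.2 to 6.88 CPM, log2 fold change -1.93) and BRMS1L (8.35 to 2.61 CPM, -1.68) fell furthest. HDAC1, a deacetylase of the complex, was the only one that rose by TMM, from 292 to 403 CPM (0.47), and it was lower with mitochondrial scaling (-0.27). HDAC2, another deacetylase of the list, fell from 140 to 121 CPM (-0.21). All 12 PRC1.6 partners of MGA passed the test, 9 lower and 3 higher, with a median of -0.62. RNF2, the ubiquitin ligase of PRC1 complexes, fell from 53.7 to 18.9 CPM (-1.51), and PCGF6, the subunit that defines PRC1.6, fell from 29.8 to 12.8 CPM (-1.22). The E2F partners TFDP1 (0.26) and TFDP2 (0.37) and the chromobox gene CBX3 rose by TMM, while none of the 12 was higher with mitochondrial scaling.

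**Figure D4:**
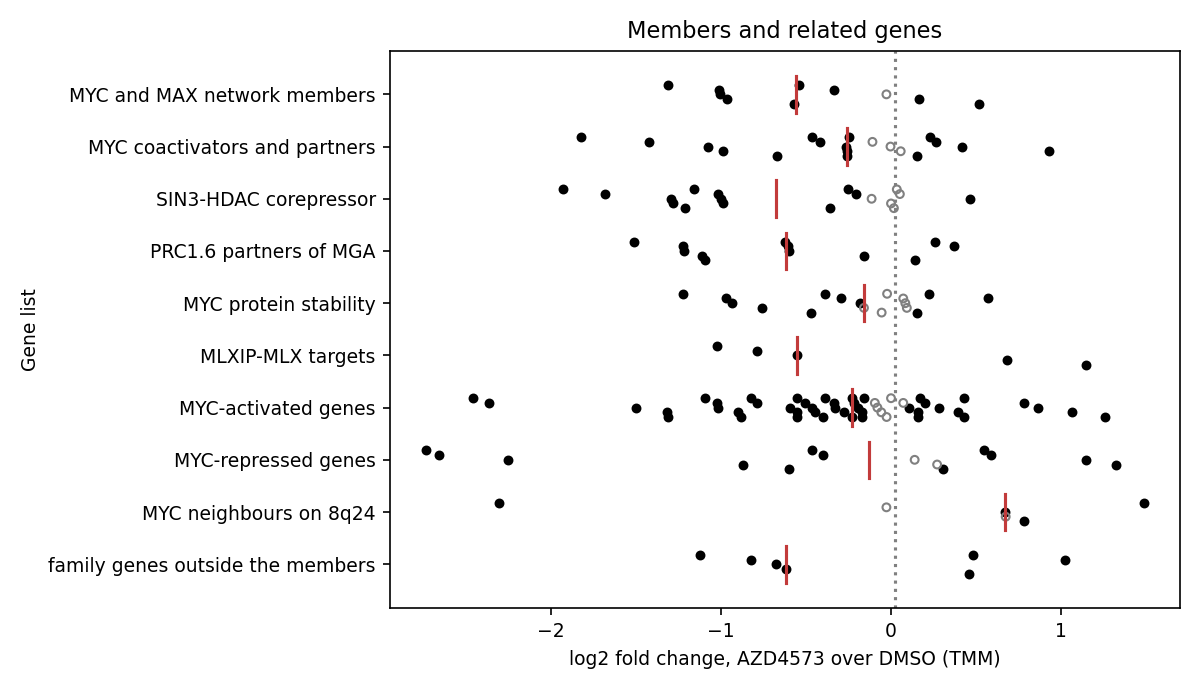
Log2 fold change (AZD4573 over DMSO, TMM) of each tested gene in the member list and 9 related lists, with filled points for an adjusted p under 0.05, open circles for others, red ticks at list medians and a dotted line at the median of all genes. The members have a median of -0.56 and the SIN3-HDAC genes one of -0.67, while each list also holds genes to the right of 0, fewer of them with mitochondrial scaling.

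Regulators of MYC protein stability were mixed. Of 17 genes, 8 fell, 3 rose and 6 passed in neither direction, with a median log2 fold change of -0.16. FBXW7, the ubiquitin ligase subunit that marks phosphorylated MYC for degradation, fell from 34.5 to 14.8 CPM (-1.22), and CIP2A, which protects MYC from the phosphatase PP2A, fell from 53.6 to 27.3 CPM (-0.97). HUWE1, another ubiquitin ligase for MYC, rose from 579 to 860 CPM (0.57) by TMM, and STUB1 was also higher, but with mitochondrial scaling all 17 were lower. STUB1 shares 985 of its 2318 exon bases with JMJD8 on the other strand, and reads in these bases cannot be told apart. MYC protein was not measured in these libraries.

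Known target genes did not move in 1 direction either. Of 50 genes that MYC is known to activate, 31 fell and 13 rose, with a median of -0.23, and with mitochondrial scaling 2 were higher. The ribosome assembly factors GRWD1 (144 to 26.2 CPM, log2 fold change -2.46) and RCL1 (42.3 to 8.24 CPM, -2.36) fell furthest. CCND2, a G1 cyclin, rose from 631 to 1320 CPM (1.07), and TERT, the catalytic subunit of telomerase, from 3.57 to 8.52 CPM (1.26). Of 14 tested genes known to be repressed by MYC, 7 fell and 5 rose, with a median of -0.13, and 2 were higher with mitochondrial scaling. BTG1 (38.5 to 5.79 CPM, -2.73) and GADD45A (12.9 to 2.04 CPM, -2.66), which restrain growth, fell, and KLF6, a zinc-finger factor, rose from 214 to 534 CPM (1.32). The other genes of this list that rose by TMM were CDKN1B, CDKN1C, NDRG2 and TXNIP.

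TXNIP and ARRDC4, paired arrestin-domain targets of MLXIP and MLX, went apart. TXNIP, an inhibitor of glucose uptake, was at 114, 115 and 112 CPM with DMSO and at 256, 257 and 241 CPM with AZD4573. Its log2 fold change was 1.15 (SE 0.04, edgeR, adjusted p = 7.52e-11), with no overlap between groups. ARRDC4 was at 3.38, 4.63 and 4.30 CPM with DMSO and at 2.42, 1.67 and 1.98 CPM with AZD4573, a log2 fold change of -1.02 (edgeR, adjusted p = 8.27e-05), also without overlap. Of the other 3 listed targets, the glycolytic genes PFKFB3 (238 to 138 CPM, -0.79) and HK2 (175 to 119 CPM, -0.56) fell, and KLF10 rose from 23.2 to 37.2 CPM (0.68 by TMM, -0.06 with mitochondrial scaling). The 5 targets thus included 3 lower and 2 higher by TMM, and 1 was higher with mitochondrial scaling.

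Of the genes that neighbour MYC at 8q24, 6 of the 9 found in the table were tested. The long non-coding RNA PVT1, which lies next to MYC, was at 4.74, 4.55 and 4.24 CPM with DMSO and at 6.72, 6.91 and 7.88 CPM with AZD4573. Its log2 fold change was 0.67 by TMM (edgeR, adjusted p = 5.06e-05) and -0.071 with mitochondrial scaling. CASC11, which shares 194 exon bases with MYC on the other strand, had mean levels of 0.263 and 0.416 CPM, and it did not pass the test (log2 fold change 0.67, edgeR, adjusted p = 0.143, and 0.21 without AZD4573 replicate 3). Also past the test were PCAT1 and POU5F1B, both higher by TMM and below 2 CPM, and TRIB1, a pseudokinase gene, which fell from 3.63 to 0.736 CPM (-2.30). PCAT1 and POU5F1B share 848 exon bases on the same strand, where reads cannot be told apart. The groups overlapped in PCAT1 (edgeR, adjusted p = 0.0468), and POU5F1B had from 4 to 21 counts in a library.

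The relatives of MYC and MLXIP outside the member list moved in both directions. MYCN had a mean of 1.27 ± 0.0538 CPM with DMSO and 0.713 ± 0.192 CPM with AZD4573 (SD, n = 3 each), a log2 fold change of -0.82 (edgeR, adjusted p = 0.00584). MYCL fell from 2.20 ± 0.0757 to 1.01 ± 0.153 CPM (SD, n = 3 each), a log2 fold change of -1.13 (edgeR, adjusted p = 6.02e-05). MLXIPL (ChREBP), the relative of MLXIP, rose from 5.52 ± 0.196 to 11.2 ± 1.23 CPM (SD, n = 3 each), a log2 fold change of 1.02 (edgeR, adjusted p = 4.23e-07), while MLXIP fell. Of 7 tested relatives and other E-box factors, 4 were lower (with USF1 at -0.68 and TFEB at -0.62) and 3 higher by TMM (MLXIPL, USF2 and BHLHE40, the last at 0.48 by TMM and -0.26 with mitochondrial scaling).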

How the data were processed

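Bulk RNA-seq of H9 cells covered 3 DMSO and 3 AZD4573 libraries, grouped by their titles. Per the submitters' processing notes and the supplemental methods, the authors trimmed reads with cutadapt 2.3, aligned them to GRCh38 with STAR 2.7.8a and used RSEM 1.3.3 at default settings, which ignore strand, to obtain expected counts for each gene. The deposited expected counts are whole and not normalized. Labels and supplemental methods differ on the library type (poly(A) selection against rRNA depletion). 5 reporter rows held 0 counts and were left out.

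Counts were compared in R 4.3.3 with edgeR 4.0.16 (TMM, filter with minimum count 10, quasi-likelihood test, Benjamini-Hochberg adjustment over 17678 genes, no replicate block). The procedure was tested on simulated data with few genes changed, as many up as down. Such data cannot test TMM where many genes change. No replicate was a copy of another, as chi-square values between their counts were 5.62 to 21.5 times the degrees of freedom. Positions and exon lengths came from GENCODE release 44. Members and lists were chosen with earlier results of these data known. Named genes were all members and, per related list, the largest 2 falls and 2 rises that passed the test, reached a mean of 5 CPM in either group and did not overlap. TXNIP, ARRDC4, PVT1, CASC11, MYCN, MYCL, MLXIPL and the 3 genes nearest to MYC and to MXD1 in pattern were also named. Further genes were named to account for small counts, or beside a related gene (HDAC2), after their values were seen. A few genes that met these rules are not reported here. Alternatives were RLE factors, library size only, scaling to 13 mitochondrial mRNAs, no filter, at least 10 counts in every library, DESeq2 1.42.0, a replicate block and each library left out.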

Additional observations from a re-analysis of the deposited data

How the results depend on the processing

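Of 130 member values under 13 alternatives, 121 kept their direction and side of the threshold, and of 442 values of related genes 433 did. Scaling to mitochondrial mRNAs changed most, and with it 11878 of all 17678 genes tested were lower and 2144 higher. Under it 8 members were lower by at least 1.5-fold and 0 were higher, where the median gene, at -0.71, was itself lower by more than 1.5-fold. MYC (-0.58) and MXI1 (-0.23) reversed on the log2 scale, as did EP400 (-0.32), HDAC1 (-0.27), TFDP1 (-0.48), TFDP2 (-0.37), HUWE1 (-0.17), KLF10 (-0.06), PVT1 (-0.071), CASC11 (-0.066) and BHLHE40 (-0.26). Also under it, 18 coactivators were lower and 1 higher, 0 SIN3-HDAC and 0 PRC1.6 genes were higher, 17 stability genes were lower and 0 higher, 1 MLXIP-MLX target, 2 MYC-activated and 2 MYC-repressed genes were higher, 2 genes of 8q24 were lower and 0 higher, and 1 family gene was higher. With library size only, 1 member, 3 coactivators and 8 MYC-activated genes were higher. Members lower by at least 1.5-fold numbered 4 by TMM, 6 with library size only, 5 with no filter and 6 without DMSO replicate 1. The share of all genes past 1.5-fold was not counted under these alternatives. With at least 10 counts in every library, 2 SIN3-HDAC and 6 stability genes were higher, and MXD3 was at 0.01. The causes were not tested.

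With 1 library left out, members higher ranged from 1 to 2 (1 without AZD4573 replicate 2 or 3), stability genes higher from 2 to 5 (5 without AZD4573 replicate 1) and 8q24 genes higher from 1 to 3 (1 without DMSO replicate 2). CASC11 ranged from 0.21 to 0.89 on the log2 scale (0.21 without AZD4573 replicate 3), MXD3 from -0.11 to 0.065 (0.065 without DMSO replicate 3, 0.02 without AZD4573 replicate 2), and the log2 ratio of MLX to MAX from -0.012 (without AZD4573 replicate 3) to 0.016. Lower members stayed at 7 in each case.

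No shared effect of the replicate number was visible, since deviations of same-numbered libraries correlated at -0.0208, 0.0417 and 0.0316. These values cannot show whether same-numbered libraries were handled together. With the replicate block, 7 members were lower and 2 higher, and no call of a member changed. Depth limits the lowest genes, as CASC8, CASC19 and GSDMC did not pass the filter on low counts, while each member had at least 394 counts in each library.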
